A study of Mus musculus with 4 samples.

Results

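Genes that build and maintain mitochondria were examined in mouse brown adipocytes with forced expression of Blnc1 (brown fat lncRNA 1), a long noncoding RNA. The set comprised every gene whose symbol begins with Timm, Tomm or Samm50 and 24 named genes for matrix chaperones, proteases, prohibitins, membrane fusion and fission, and upkeep of the mitochondrial genome. Of the 24 named genes 22 had a probe set annotated with exactly 1 symbol, and 22 further genes came from the symbol families, giving 44 genes of the 10926 measured. Each gene was represented by its brightest probe set over all 4 arrays. Hspd1 and Clpx, and the family genes Tomm40, Tomm20l, Timm13, Timm8a1 and Timm8a2, were not analysed here.

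The study compared brown adipocytes of wild type genotype carrying either a vector or Blnc1. Preadipocytes of both kinds had been differentiated for 6 days, so both groups shared the length of differentiation and were labelled by the transcript expressed. Brown adipocyte markers also differed between the groups, as given below. There were 2 arrays for each group, called biological replicates in the labels, with no statement that they came from separate transductions or animals; p-values therefore measure the spread between these arrays, which may be technical. The labels name neither the promoter that drove Blnc1 nor the origin of the preadipocytes.

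Almost all mitochondrial proteins are encoded in the nucleus, made in the cytosol and imported. The outer membrane complex TOM receives them, SAM inserts barrel-shaped proteins into the outer membrane, small TIM chaperones escort hydrophobic cargo across the space between the membranes, and the inner membrane translocases TIM22 and TIM23 insert proteins or pass them to the matrix with the help of a chaperone motor. Matrix chaperones fold the imported chains, proteases remove damaged ones, fusion and fission set the shape of the network, and a small set of nuclear-encoded factors copies and transcribes mitochondrial DNA (mtDNA). Brown adipocytes are densely packed with mitochondria, where the uncoupling protein Ucp1 turns the proton gradient into heat.

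Deposited values are on a log2 scale, on which a difference of 1 is a doubling, and the median of an array was 5.98 to 6.04. Brown adipocyte markers were measured in both groups, and all 8 had a positive log2 fold change (5 past the test, median 1.09). The 5 measured general adipocyte markers had a median of 0.0016. Among markers of other cells, all 5 preadipocyte and fibroblast genes had negative values (median -0.42, none past the test). At an unadjusted p under 0.05 (limma) 4 of the 5 were lower, against 9.08% of all genes. The summed linear level of the 5 genes was 2101 and 2244 in the vector arrays against 1540 and 1655 in the Blnc1 arrays. Most of this sum was Col3a1, at 10.86 and 10.945 in vector arrays and 10.40 and 10.51 in Blnc1 arrays. Pdgfra, Dlk1 and Thy1 lay under the array medians. The 2 macrophage, 1 endothelial and 2 skeletal muscle markers lay between 4.04 and 5.10, under the array medians, in all 4 arrays. The spike-in controls of hybridisation read lower in Blnc1 arrays for all 18 probe sets (median -0.27). The 3' minus 5' difference of the Actb control, a sign of RNA quality, was 1.47 and 1.56 in vector arrays and 1.29 and 1.40 in Blnc1 arrays; for Gapdh it was 0.38 and 0.45 against 0.29 and 0.27. These measures separated the same 2 groups of arrays as every result below, and their part in the results was not tested.

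Promoters of genes for mtDNA transcription are shown first. They were chosen because the 4 genes of this role (Tfam, Tfb1m, Tfb2m and Polrmt) each had both Blnc1 arrays above the vector pair. Over all genes 28.3% did so. Twnk, the mtDNA helicase gene, is added for its ERR match. Each line gives the 150 bases before a RefSeq transcription start, 5′ to 3′ on the gene's own strand, from the promoter table of build GRCm38.p6. Capitals mark exact matches, on either strand, to the NRF1 motif GCATGCGC, the ETS motif CCGGAAG (bound by GABP) or the ERR motif CAAGGTCA; lower case marks all other bases. NRF1, GABP and ERR are factors known for activating nuclear genes of mitochondria.
Tfam, chr10:71238045-71238194, minus strand: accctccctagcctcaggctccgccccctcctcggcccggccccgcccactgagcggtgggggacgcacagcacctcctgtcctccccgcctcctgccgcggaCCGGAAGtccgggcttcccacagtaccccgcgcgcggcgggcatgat
Tfb1m, chr17:3557756-3557905, minus strand: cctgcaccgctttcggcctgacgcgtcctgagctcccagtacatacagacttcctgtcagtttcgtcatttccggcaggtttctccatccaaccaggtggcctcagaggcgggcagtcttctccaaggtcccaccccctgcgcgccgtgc
Tfb2m, chr1:179546277-179546426, minus strand: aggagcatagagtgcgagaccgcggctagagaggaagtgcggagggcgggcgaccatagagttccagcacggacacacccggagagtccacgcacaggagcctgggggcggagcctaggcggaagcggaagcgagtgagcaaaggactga
Polrmt, chr10:79746582-79746731, minus strand: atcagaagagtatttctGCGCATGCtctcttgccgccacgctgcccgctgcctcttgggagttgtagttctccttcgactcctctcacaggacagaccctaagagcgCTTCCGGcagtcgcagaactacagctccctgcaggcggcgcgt
Twnk, chr19:45005513-45005662, plus strand: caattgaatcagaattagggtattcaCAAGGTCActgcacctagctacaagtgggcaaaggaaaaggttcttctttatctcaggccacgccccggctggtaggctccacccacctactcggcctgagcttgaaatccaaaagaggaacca

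The ETS match of Tfam began 47 bases before the start. Polrmt had an NRF1 match 133 bases and an ETS match 43 bases before it, both on the opposite strand. The ERR match of Twnk began 124 bases before the start on the gene's strand. Tfb1m had no match in its window, and the NRF1 match of Tfb2m began at base 14 after the start, beyond the stretch shown. The annotated gene extent reached 284 bases upstream of the start used for Tfam, 41 for Tfb1m, 29 for Tfb2m and 23 for Polrmt, so the whole Tfam stretch and the last part of the other 3 lie within the annotated gene; that of Twnk ended just before its gene's first annotated base.

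Over windows of 250 bases before to 50 after a start, 39 of the 44 genes had at least 1 window. Afg3l2, Hspa9, Timm21, Tomm40l and Tomm7 had no entry. An ETS match was found in 22 of the 39 (56.4%), against 20.1% of 8827 measured genes and 9.93% of all 27025 genes in the table. For the NRF1 motif, whose forward and reverse forms can overlap, the share was 7.69% (3 genes) against 5.96% and 3.05%. An ERR match stood in 5.13% (2 genes), against 1.37% and 1.76%. All 4 genes of mtDNA copying held an ETS match, Twnk in its second window, and of the 4 genes of mtDNA transcription Tfam and Polrmt did. Of the 8 genes with a window and an unadjusted p under 0.05 in the expression comparison 3 held an ETS match (37.5%), against 19 of the other 31 (61.3%). The share was thus lower among the genes with the smaller p, on few windows, and base composition was not matched in any of these shares.

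The comparison of Blnc1 with vector cells asked how the forced transcript changed expression after differentiation. In this set the differences were small and mostly upward: 36 of 44 genes had a positive log2 fold change (Blnc1 minus vector), against 51.6% of all genes, with a median of 0.098 against 0.0073 over all genes. The range ran from -0.16 for Tomm34 to 0.38 for Clpp, the proteolytic subunit of a matrix protease. No gene passed the test (limma, Benjamini-Hochberg adjusted p of 0.05 over all 23599 probe sets), where 1.23% of all genes did (0.86% higher and 0.366% lower); the smallest adjusted p was 0.116. At an unadjusted p under 0.05 (limma) there were 10 genes higher (22.7%), against 11.7% of all genes, and 0 lower, against 9.08%. In either direction the share over all genes was 20.7%. Shares over all genes, here and below, were not matched for level, and most genes of the set lay above the array medians. In RNA from whole cultures, fewer cells of a type and less RNA per cell cannot be told apart.

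The arrays themselves separated more often than the test called. Both Blnc1 arrays lay above both vector arrays for 26 of the 44 genes, against 28.3% of all genes, and below them for 2, Tomm6 and Tomm34, against 24.9%. The other 16 genes overlapped. The 95% interval of the difference lay within 1.5-fold in either direction for 42 of the 44 genes, against 89.9% of all genes. The exceptions were Clpp and Phb, whose intervals reached 0.60 and 0.63 against a limit of 0.58. After repeated quantile normalization 31 genes stayed positive and after median centring 32. The set's medians were then 0.092 and 0.082, against -0.0026 and -0.0086 over all genes. The signs that turned belonged to Mfn1, Timm22, Tomm40l and Yme1l1, and with the former also Hspa9, all within 0.031 of 0.

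**Figure D1:**
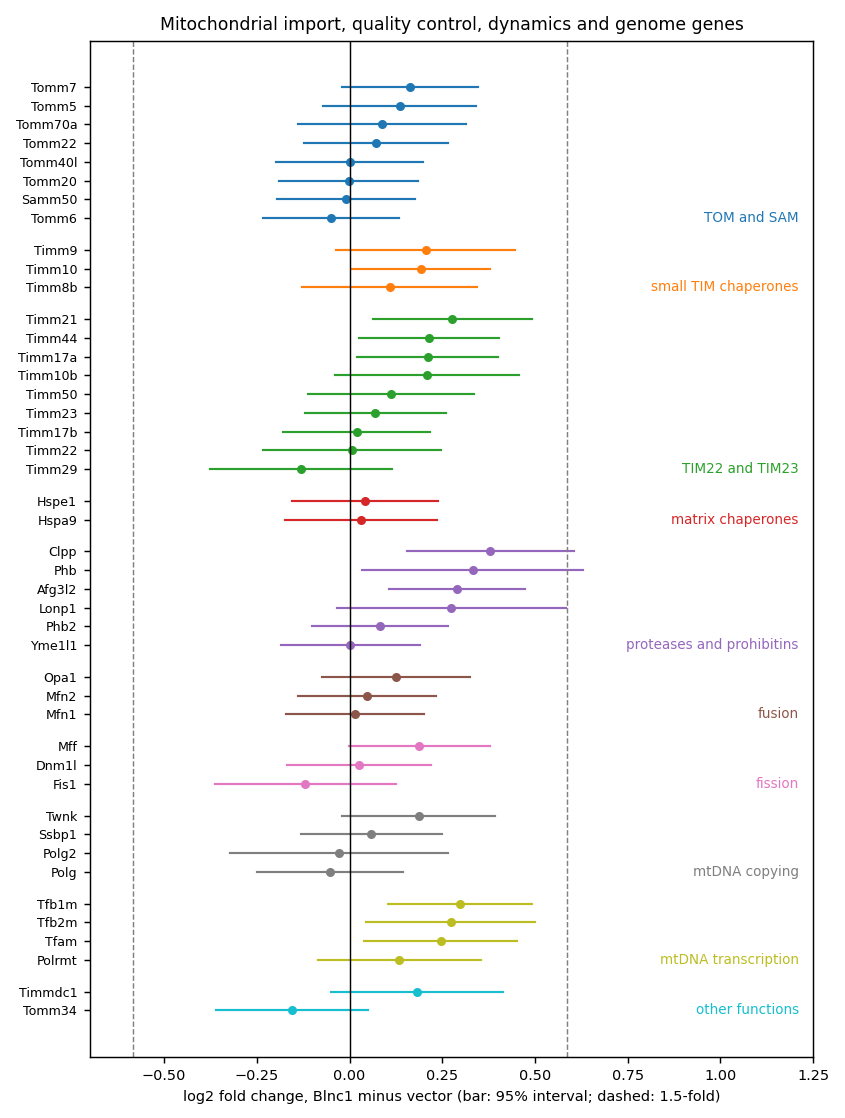
Log2 fold change (Blnc1 minus vector, x axis) of each of the 44 genes, grouped by role, with the limma estimate as a point and its 95% interval as a bar; dashed lines mark 1.5-fold. Estimates run from -0.16 to 0.38, 36 of the 44 lie right of 0, and only the bars of Clpp and Phb cross a dashed line.

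The shift of the set was set beside the difference between replicate arrays. Replicate 2 was lower than replicate 1 for 36 genes among the vector arrays (median -0.053) and for 32 among the Blnc1 arrays (median -0.054). Over all genes, replicate 2 was lower for 5527 of 10926 among the vector arrays (median -0.0021) and for 6745 among the Blnc1 arrays (median -0.039). The downward difference of the set thus stood beside almost none over all genes in the vector pair and beside one of similar size in the Blnc1 pair. The median of 0.098 between the groups was 0.061 without vector replicate 2 and 0.13 without vector replicate 1, and 0.067 and 0.13 without Blnc1 replicates 1 and 2. Over all genes the medians of the same fits, in that order, were 0.0054, 0.011, -0.0089 and 0.023.

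Whether any gene was called depended on the settings of the test. With a prior that follows the level of the probe set, 9 genes passed, all higher in Blnc1 cells: Clpp, Afg3l2, Timm17a, Timm44, Phb, Timm21, Tfb1m, Tfam and Timm10 (limma adjusted p 0.00516 to 0.0363). Under that prior 6.38% of all genes passed as higher and 4.94% as lower. All 9 were among the 10 genes with an unadjusted p under 0.05 in the test without the trend. When only probe sets with a mean of 6 or more were tested, Afg3l2, Clpp and Tfb1m passed, where 5.94% of the genes left did as higher and 3.49% as lower.

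Genes grouped under mtDNA transcription and packaging were higher in Blnc1 cells in all 4 cases, with a median log2 fold change of 0.26 and no gene past the test. Tfb1m was grouped here although it is a methyltransferase of mitochondrial ribosomal RNA. It read 7.84 and 7.83 in the vector arrays and 8.18 and 8.09 in the Blnc1 arrays. The groups did not overlap, and the log2 fold change was 0.30 ± 0.079 (SE, n = 2 arrays each; limma adjusted p = 0.135). Its dimmer probe set stood at 0.50 ± 0.10 (limma adjusted p = 0.0873). Tfb2m, which opens mtDNA promoters for the polymerase, read 8.02 and 7.90 against 8.30 and 8.16, which gave 0.27 ± 0.093 (SE; limma adjusted p = 0.199).

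Tfam, which packages mtDNA and bends its promoters, read 8.95 and 8.88 in vector cells and 9.21 and 9.10 in Blnc1 cells. Its log2 fold change was 0.25 ± 0.084 (SE; limma adjusted p = 0.201). The further probe set of Tfam, with a vector mean of 5.54 under the array medians, stood at -0.13 ± 0.097, in the opposite direction, and its groups overlapped. With the mean of both probe sets Tfam stood at 0.060 (limma adjusted p = 0.739). Polrmt, the mitochondrial RNA polymerase, read 8.85 in both vector arrays and 9.07 and 8.90 in the Blnc1 arrays, a log2 fold change of 0.13 ± 0.090 (SE).

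Genes for mtDNA copying had values on both sides of 0, and all 4 of their 95% intervals included 0. Twnk, the helicase that unwinds mtDNA ahead of the polymerase, read 6.77 and 6.68 in vector arrays and 6.96 and 6.86 in Blnc1 arrays (log2 fold change 0.19 ± 0.084 SE, limma adjusted p = 0.305). Ssbp1, which coats single-stranded mtDNA, stood at 0.059 ± 0.077. The polymerase subunits Polg and Polg2 stood at -0.053 ± 0.080 and -0.028 ± 0.12, and their groups overlapped. The median of these 4 genes was 0.015. The intervals reached 0.39 for Twnk and 0.14 for Polg at the upper end, and differences between these genes were not tested.

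Proteases and prohibitins held the largest values of the set. All 6 genes were positive on their brightest probe sets (median 0.28), Yme1l1 by only 0.0021. Of the 6 genes, 5 had both Blnc1 arrays above both vector arrays, against 28.3% of all genes. Clpp read 9.04 and 8.95 in vector arrays and 9.45 and 9.29 in Blnc1 arrays. The difference was 0.38 ± 0.092 (SE), a 1.30-fold higher level, with a 95% interval of 0.15 to 0.60 and an adjusted p of 0.116 (limma). Its further probe set, at 0.196 ± 0.087, was separated in the same direction.

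Afg3l2, a subunit of the inner membrane protease that faces the matrix, had the tightest replicates among these genes, at 9.12 and 9.11 in vector and 9.41 in both Blnc1 arrays. Its log2 fold change was 0.29 ± 0.075 (SE; limma adjusted p = 0.130), and its dimmer probe set stood at 0.42 ± 0.10. Phb, one of the prohibitins that form ring scaffolds in the inner membrane, read 10.02 and 9.78 against 10.35 and 10.12. Replicate 2 was lower than replicate 1 by 0.23 in both groups, and the groups, which did not overlap, differed by 0.33 ± 0.12 (SE; limma adjusted p = 0.221). Without vector replicate 2 the difference was 0.21, and without Blnc1 replicate 1 it was 0.22. Phb2, its partner in the ring, stood at 0.082 ± 0.075.

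Lonp1, the matrix protease that also degrades Tfam, read 9.66 and 9.94 in vector arrays and 9.97 and 10.19 in Blnc1 arrays. The lower Blnc1 array lay just above the higher vector array, and the log2 fold change was 0.27 ± 0.13 (SE; limma adjusted p = 0.313). Unlike most genes of the set, Lonp1 was higher in replicate 2 of both groups. Yme1l1, the inner membrane protease that faces the space between the membranes, stood at 0.0021 ± 0.077, with overlapping groups. A further probe set of Yme1l1, with a vector mean of 7.98 against 7.94, stood at -0.13 ± 0.084. On it both Blnc1 arrays lay below both vector arrays. The dimmest probe set of Yme1l1 stood at 0.016 ± 0.10, with overlapping groups.

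**Figure D2:**
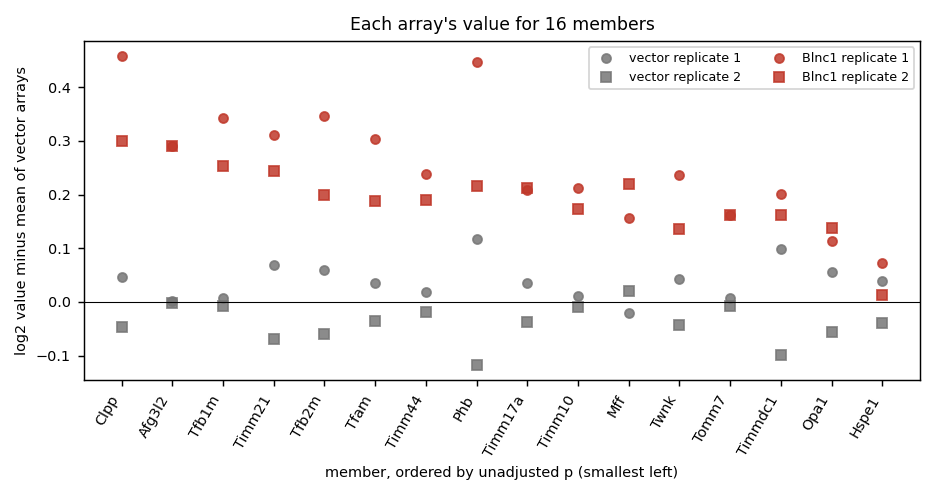
Value of each array for 16 genes (the 12 with the smallest unadjusted p and the leading gene of each role), as log2 value minus the mean of that gene's vector arrays (y axis); grey marks are vector arrays, red marks Blnc1 arrays, circles replicate 1 and squares replicate 2. In all but Hspe1 both red marks lie above both grey ones, and for Afg3l2 the marks of a group coincide.

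Inner membrane translocases had 8 of 9 genes above 0, against 51.6% of all genes (median log2 fold change 0.11). Timm21, which links TIM23 to the outer membrane and the respiratory chain, read 8.69 and 8.56 in vector arrays and 8.94 and 8.87 in Blnc1 arrays (0.28 ± 0.087 SE, limma adjusted p = 0.179). Timm44, which anchors the import motor to the channel, read 10.07 and 10.04 against 10.29 and 10.25 (0.21 ± 0.077 SE, limma adjusted p = 0.214). The further probe sets of Timm44 stood at 0.25 ± 0.075 and 0.42 ± 0.10. For both genes, and on all 3 probe sets of Timm44, the groups did not overlap.

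The paralogs Timm17a and Timm17b, alternative subunits of the TIM23 complex, gave different values. Timm17a read 10.55 and 10.48 in vector arrays and 10.72 and 10.73 in Blnc1 arrays (0.21 ± 0.078 SE, limma adjusted p = 0.224). Timm17b read 9.02 and 8.94 against 9.03 and 8.96 (0.019 ± 0.081 SE), and its groups overlapped. The difference between the paralogs was not tested. The channel gene Timm23 stood at 0.070 ± 0.078, and Timm50, the receptor that hands preproteins to it, at 0.11 ± 0.091.

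Among genes of the TIM22 complex, which inserts carrier proteins, Timm10b stood at 0.21 ± 0.10 and Timm22, the channel, at 0.0072 ± 0.098. The further probe set of Timm22, with a dim vector mean of 4.67, stood at 0.22 ± 0.11, and its groups did not overlap. Timm29, a subunit of the same complex, stood at -0.13 ± 0.10, the lowest value of the translocase genes, with overlapping groups. The 3 measured small TIM chaperones were all positive (median 0.19). Timm10 read 9.56 and 9.54 in vector arrays and 9.76 and 9.72 in Blnc1 arrays (0.19 ± 0.076 SE, limma adjusted p = 0.248). Its partner in the ring-shaped chaperone, Timm9, stood at 0.21 ± 0.098 with a further probe set at 0.24 ± 0.13, and Timm8b at 0.11 ± 0.096.

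Outer membrane entry genes lay close to 0. The median of the 8 genes was 0.036, 5 were above 0, and 0 reached an unadjusted p of 0.05. Tomm7, a small subunit that modulates assembly of the complex, read 9.56 and 9.54 in vector arrays and 9.71 in both Blnc1 arrays (0.16 ± 0.075 SE, limma adjusted p = 0.315); of its 3 further probe sets all were positive, at 0.075 to 0.24. Tomm5, another small subunit, stood at 0.13 ± 0.084. Tomm6, the third, read 11.09 in both vector arrays and 11.04 in both Blnc1 arrays, a separated but small difference of -0.049 ± 0.075 with a further probe set at -0.12.

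The receptors Tomm20 and Tomm70a stood at -0.0020 ± 0.077 and 0.088 ± 0.092, and Tomm22, which links receptors to the channel, at 0.071 ± 0.079. Tomm20 read 11.76 and 11.71 in vector arrays and 11.72 and 11.74 in Blnc1 arrays, with a 95% interval of -0.19 to 0.19. Its 3 further probe sets did not share a sign. Tomm40l, a paralog of the channel gene, stood at 6.1e-04 ± 0.081, and Samm50, the core of SAM, at -0.0099 ± 0.076. The further probe set of Samm50 stood at 0.075 ± 0.080, with both Blnc1 arrays above both vector arrays. For these genes a difference above 1.5-fold lay outside the interval.

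Matrix chaperone genes overlapped between the groups on their brightest probe sets. Hspa9, the chaperone of the import motor, read 11.67 and 11.71 in vector arrays and 11.66 and 11.79 in Blnc1 arrays (0.031 ± 0.084 SE). Its further probe sets stood at 0.085 and 0.087, and on both of them the Blnc1 arrays lay above the vector arrays. Hspe1, the lid of the folding chamber, read 11.34 and 11.26 against 11.38 and 11.32 (0.042 ± 0.080 SE, limma adjusted p = 0.827). The upper ends of both 95% intervals were 0.24.

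Genes of mitochondrial shape were separated between the groups for Opa1, Mfn2 and Mff, with Blnc1 arrays higher, and overlapped for Mfn1, Dnm1l and Fis1. Over all genes, 28.3% had both Blnc1 arrays above both vector arrays and 24.9% had both below. The fusion genes Opa1, of the inner membrane, and Mfn1 and Mfn2, of the outer membrane, were all positive, at 0.13 ± 0.082, 0.014 ± 0.076 and 0.048 ± 0.076. Opa1 read 9.80 and 9.69 in vector arrays and 9.85 and 9.88 in Blnc1 arrays; a further probe set stood at 0.20 and the dimmest at -0.065. Of the fission genes, Mff, a receptor that recruits the fission dynamin, read 8.05 and 8.09 against 8.22 and 8.29, with no overlap (0.19 ± 0.078 SE, limma adjusted p = 0.270). The dynamin itself, Dnm1l, stood at 0.026 ± 0.079. Fis1, an outer membrane adaptor, stood at -0.12 ± 0.0997, with overlapping groups, and at -0.10 on its further probe set.

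A pair of genes shares only the naming scheme. Tomm34, a cytosolic co-chaperone, read 7.23 and 7.32 in vector arrays and 7.16 and 7.08 in Blnc1 arrays, the lowest value of the set (-0.16 ± 0.083 SE, limma adjusted p = 0.381). Timmdc1, an assembly factor of respiratory complex I, read 7.59 and 7.39 against 7.69 and 7.65 (0.18 ± 0.095 SE, limma adjusted p = 0.367). Without this pair, 35 of 42 genes were positive and the median was again 0.098.

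**Figure D3:**
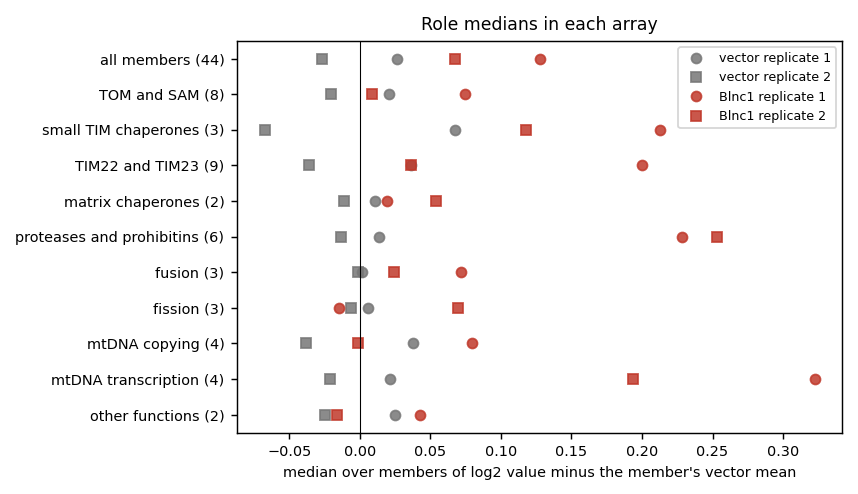
Median over the genes of each role (number of genes in brackets) of the log2 value minus the gene's vector mean, 1 mark per array on the x axis; grey marks are vector, red marks Blnc1, circles replicate 1 and squares replicate 2. The medians of mtDNA transcription in the Blnc1 arrays lie at 0.32 and 0.19 and those of proteases and prohibitins at 0.23 and 0.25, against 0.021 or less in the vector arrays, whereas the marks of TOM and SAM span -0.021 to 0.074 and overlap.

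The role medians of the Blnc1 arrays overlapped those of the vector arrays for TOM and SAM, fission, mtDNA copying and the pair with other functions. They lay above them for the other roles, by little for fusion (0.072 and 0.025) and matrix chaperones (0.019 and 0.054). For TIM22 and TIM23 Blnc1 replicate 2 stood at 0.036, level with vector replicate 1 at this precision, and Blnc1 replicate 1 at 0.20. The roles were not tested against each other.

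Further probe sets gave a second reading for 27 of the 44 genes. Of 36 such probe sets 29 had the sign of the brightest one. The other 7 differed in sign, and 0 of these had an unadjusted p under 0.05. None passed the adjusted threshold (limma), and 5 had an unadjusted p under 0.05, belonging to Tfb1m, Afg3l2, Timm44 (both) and Tomm7. That is 13.9%, against 18.9% of all probe sets, and 0.928% of all probe sets passed the adjusted threshold. Of the 36, 24 were positive (66.7%, against 51.3% of all probe sets), a smaller share than the 81.8% of the brightest probe sets. Their median was 0.080.

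**Figure D4:**
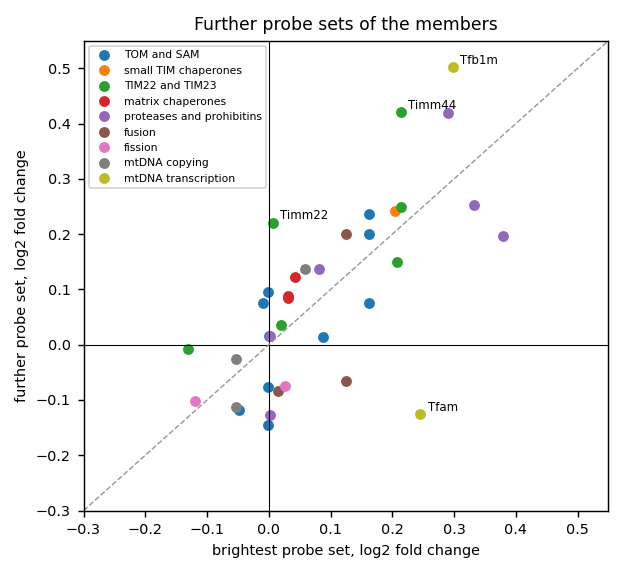
Log2 fold change (Blnc1 minus vector) of the 36 further probe sets (y axis) against that of the brightest probe set of the same gene (x axis), coloured by role; the dashed line marks equality. Tfb1m, at 0.30 and 0.50, and Timm44, at 0.21 and 0.42, lie above the line, and Tfam, at 0.25 and -0.13, lies in the opposite quadrant.

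Companion genes of the same pathways were drawn from a separate list of 98, of which 87 were measured. None passed (limma adjusted p of 0.05). At an unadjusted p under 0.05 (limma), 23 were higher (26.4%, against 11.7% of all genes) and 1 was lower (against 9.08%). A positive log2 fold change was found for 69 (79.3%, against 51.6% of all genes), with a median of 0.095. The cumulative plot shows both sets displaced by a similar amount from all genes.

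Of the companions, the 2 with the smallest p in each role are named. In genome and transcript upkeep 19 of 22 genes were positive, 7 at an unadjusted p under 0.05 (limma; 31.8%, against 11.7% of all genes higher). Endog, a mitochondrial nuclease, had a vector mean of 8.22 and a Blnc1 mean of 8.72 (log2 fold change 0.50, limma adjusted p = 0.0559). Slc25a33, a pyrimidine nucleotide carrier, stood at 0.43 (limma adjusted p = 0.0736). Of 7 genes of the cristae-shaping MICOS complex all were positive (median 0.14), with Apool at 0.31 and Apoo at 0.25. Of the 7, 3 had an unadjusted p under 0.05 (limma; 42.9%, against 11.7% of all genes higher). Among 18 import accessory genes 15 were positive, with the motor exchange factor Grpel2 at 0.31 and Mipep, the mitochondrial intermediate peptidase, at 0.27.

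Companion chaperones and proteases were positive in 7 of 10 cases, with Afg1l at 0.46 (limma adjusted p = 0.0775) and the chaperone Trap1 at 0.28. In the group of dynamics and outer membrane quality control 16 of 20 were positive. There the smallest p belonged to Gdap1, a fission factor, which stood at -0.38 from a dim vector mean of 4.61, and next to Mul1, an outer membrane ubiquitin ligase, at 0.31. Nuclear regulators of mitochondrial genes were split by sign, 5 positive and 5 negative (median 0.0099). At an unadjusted p under 0.05 (limma) 3 were higher (30%, against 11.7% of all genes) and 0 lower (against 9.08%). The coactivator Ppargc1b stood at 0.28 (limma adjusted p = 0.134) and Nrf1, whose motif was searched above, at 0.27 (limma adjusted p = 0.176).

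**Figure D5:**
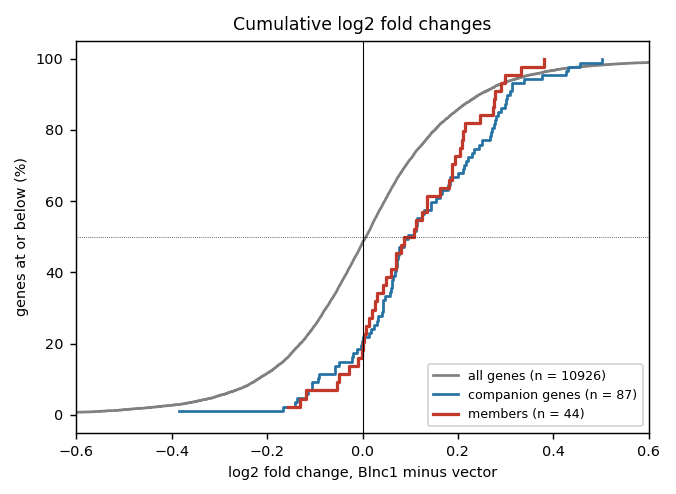
Share of genes (y axis, percent) at or below each log2 fold change (x axis, Blnc1 minus vector, shown from -0.6 to 0.6) for all 10926 genes, the 87 companion genes and the 44 genes of the set. The curves of the set and of the companions cross 50% at 0.098 and 0.095, that of all genes at 0.0073.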

How the data were processed

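Biotin-labelled total RNA of 4 samples was read on Affymetrix Mouse MG-430 PM Strip arrays. The authors deposited 1 log2 value per probe set and array, for which the submitters' processing notes name limma, RMA and affy without versions or settings; the log2 scale was read from the range of the values. RMA compresses differences of dim probe sets, and raw intensities were not used here. The 35 control probe sets were left out of the tests, leaving 23599. Gene names came from the platform annotation held by GEO. The 44 genes, their roles and the companion list were chosen with earlier results of these data known.

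Groups and replicate numbers came from the sample titles. Blnc1 arrays were compared with vector arrays with the two-sided moderated test of limma 3.58.1 (R 4.3.3), without covariates or a filter on level, and with Benjamini-Hochberg adjustment over all 23599 probe sets; the prior had 3.95 degrees of freedom and an SD of 0.092. Intervals are 95% moderated intervals of the log2 fold change. The script was tested on simulated data. Precision is limited by having 2 arrays per group. The 15 alternatives covered the variance prior, normalization, dim and cross-hybridising probe sets, averaging over probe sets, the threshold, the replicate number as a block and each array left out. Array values were given for the 12 genes with the smallest unadjusted p and the leading gene of each role, and for others chosen after their values were seen. Of the companions, the leading 2 of each role were named. Promoter windows of the set were matched by Entrez ID to RefSeq sequences (GRCm38.p6). Those of the 8827 measured genes beside them were matched by symbol, so the 2 shares rest on unlike matching. Protein sequences were not used here.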

Additional observations from a re-analysis of the deposited data

How the results depend on the processing

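The count of 0 genes of the set past an adjusted p of 0.05 (limma) was unchanged under 13 of 15 alternatives. Some of these called few or no probe sets at all, as given below, so a count of 0 says little there. The count was 9 with a variance prior that follows the level and 3 among probe sets with a mean of 6 or more. That filter left 11792 probe sets to adjust over, and the variance prior was estimated anew on them. At an unadjusted p under 0.05 (limma) it gave 13 of 43 genes of the set, all higher in Blnc1 cells. Over the 11792 probe sets, of which several can belong to 1 gene, 3486 lay under it in either direction. The companion count of 0 became 17 with the trended prior, 1 after median centring, 1 after averaging over probe sets, 2 and 8 with means of at least 5 and 6, and 3 at an adjusted p of 0.10. Over all probe sets 219 passed; this became 2174 with the trended prior, 453 and 1026 with the filters, 958 at 0.10, and 0 without moderation, where 3204 had an unadjusted p under 0.05 and 9 genes of the set did. Leaving out each array gave 3 to 38. The median of the set ranged from 0.061 to 0.13 over these 4 fits, and no gene of the set passed in any of them (smallest adjusted p 0.196 to 0.297). With the replicate block 30 probe sets passed and 0 genes of the set (smallest limma adjusted p 0.126). Of the set 12 genes, all higher, had an unadjusted p under 0.05 (limma) with the block. Over the 23599 probe sets 4710 did, in either direction. Same-numbered arrays are not said to share a batch, and their deviations correlated at 0.089. For the 16 genes whose arrays are plotted, 212 values under alternatives kept their direction and their side of the threshold, and 12 kept their direction and passed; sizes could still move, as for Tfam, from 0.25 to 0.060 after averaging over probe sets. The arrays carry no read depth; 2 arrays a group limit what can be called. The cause of these changes was not tested.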
